A study of Mus musculus with 10 samples.

Results

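Apobec2, Smpx, Fhl3 and Tpt1 are 4 genes expressed in muscle that were chosen by their wide range between inbred mouse strains in these same arrays. They are 4 of the 6540 genes named on the array, and each was read from 1 oligonucleotide printed in 2 spots, so that 8 of the 15552 spots carry them. The range between strains is therefore how the genes were found and not a result, and no test of it is given. The rule set no numeric limit on the range.

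Total RNA was taken from quadriceps muscle of 10 healthy, untreated male mice, 2 of each of the strains C57Bl/10ScSnOlaHsd (BL10), DBA/2OlaHsd (DBA), CBA/CaOlaHsd (CBA), C57Bl/6JOlaHsd (BL6) and BALB/cOlaHsd (BALB). The mice were delivered at 6 weeks of age and killed at 8 weeks. Each array set a Cy5-labelled animal against a Cy3-labelled animal of another strain, and each animal was used once in each dye, so that 4 arrays form the smaller and 6 the larger of the loops, which share no animal. An animal is named by its strain and number.

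The values of 2 of the 10 arrays, BL6 2 over CBA 1 and BALB 1 over CBA 2, were identical at every spot, so at least 1 of these labels does not match its values. Without them 8 arrays remain, of which 3 belong to the smaller and 5 to the larger loop. CBA then remains on 2 arrays, both times in Cy5 against BL10, so that its distance from any strain depends on how the dye effect was estimated. All values are ratios within an array and hold no absolute level, so neither the presence of muscle markers nor the order of 1 gene against another could be read. In bulk muscle, fewer cells of a type and less RNA per cell cannot be told apart.

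Apobec2 is a member of the AID/APOBEC family of cytidine deaminases that is made mainly in skeletal muscle and heart, with more of it in slow than in fast fibres. Smpx is a small muscle protein that lies at the costamere, the structure that couples the sarcomere to the cell membrane. Fhl3 belongs to the FHL family of LIM-only proteins, whose zinc-binding LIM domains serve as docking sites for cytoskeletal proteins and transcription factors, MyoD among them. Tpt1, the translationally controlled tumour protein, is made in almost every cell. It acts in growth and survival, and its mRNA begins with a pyrimidine tract (TOP) like those of the ribosomal proteins.

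The genes lie on different chromosomes of the GRCm38.p6 assembly, Apobec2 at chr17:48419231-48432728, Smpx at chrX:157698973-157752591, Fhl3 at chr4:124695964-124708611 and Tpt1 at chr14:75845256-75848303. The RefSeq table of that assembly also names 7 Tpt1 pseudogenes, and whether the Tpt1 oligonucleotide tells them from the gene was not tested. The 250 bases before each gene's start are shown from RefSeq, 5′ to 3′ on the strand of the gene, because 3 of the genes had their highest level in the same strain. They come from the reference strain C57BL/6J and hold no strain difference. The windows are chr17:48432729-48432978 on the minus strand, and chrX:157698723-157698972, chr4:124700449-124700698 and chr14:75845006-75845255 on the plus strand. That of Fhl3 starts inside the span of the gene, which has further transcripts. Capitals mark TATA boxes (TATAAA), E-boxes (CANNTG) and the core of the cAMP response element (TGACG), each searched on both strands.

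Apobec2: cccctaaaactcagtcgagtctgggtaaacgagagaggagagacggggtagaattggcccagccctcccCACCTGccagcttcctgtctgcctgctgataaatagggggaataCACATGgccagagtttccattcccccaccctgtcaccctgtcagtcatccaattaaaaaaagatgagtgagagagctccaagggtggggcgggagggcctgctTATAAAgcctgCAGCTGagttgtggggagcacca
Smpx: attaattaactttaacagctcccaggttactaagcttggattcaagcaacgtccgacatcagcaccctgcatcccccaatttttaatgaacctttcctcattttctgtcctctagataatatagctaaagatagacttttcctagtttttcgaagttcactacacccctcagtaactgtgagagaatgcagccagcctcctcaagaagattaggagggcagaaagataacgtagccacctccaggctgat
Fhl3: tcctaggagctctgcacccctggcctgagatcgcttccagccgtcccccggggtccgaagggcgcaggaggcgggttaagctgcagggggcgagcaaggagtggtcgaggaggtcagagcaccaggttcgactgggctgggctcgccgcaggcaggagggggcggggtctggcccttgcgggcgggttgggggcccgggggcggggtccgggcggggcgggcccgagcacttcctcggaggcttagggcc
Tpt1: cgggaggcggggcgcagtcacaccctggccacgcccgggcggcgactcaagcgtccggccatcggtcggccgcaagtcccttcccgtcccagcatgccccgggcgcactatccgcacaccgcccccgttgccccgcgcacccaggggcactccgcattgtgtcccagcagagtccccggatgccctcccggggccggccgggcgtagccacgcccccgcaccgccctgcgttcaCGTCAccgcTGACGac

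Apobec2 had a TATA box from 34 to 29 bases before its start and 3 E-boxes, the nearest from 23 to 18 bases before it. Of 32851 promoters of the same length, 12.4% held a TATA box and 66.2% an E-box. Neither Smpx, Fhl3 nor Tpt1 held any of these letters in the window. Tpt1 had 2 cores of the cAMP response element, found in 17.8% of all promoters. GC boxes (GGGCGG) numbered 5 in Fhl3, of which 1 pair overlapped by a base, 3 in Tpt1, 1 in Apobec2 and 0 in Smpx, against 32.7% of promoters with any. The M-CAT element (CATTCC) occurred once, in Apobec2, against 12.6% of promoters. MEF2 sites and CArG boxes occurred in none of the 4, and in 2.92% and 1.47% of promoters. The windows of Tpt1 and Fhl3 were rich in G and C, at 75.6% and 74.0%, where Apobec2 had 55.2% and Smpx 42.8%. Smpx held none of the elements searched, so the 3 genes with their top level in BALB could share none, and no conclusion is drawn. A match is a run of letters, not a measured site.

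**Figure D1:**
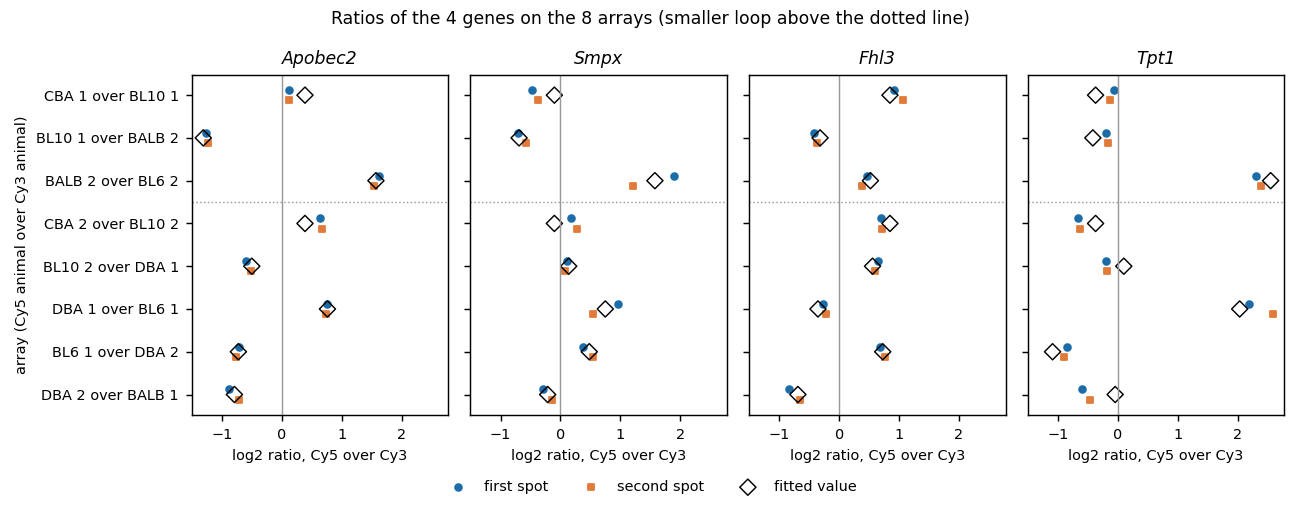
Log2 ratio of Cy5 over Cy3 (horizontal axis) of each gene on the 8 arrays (vertical axis), with the 2 duplicate spots as filled points and the value fitted from strain levels and dye effect as an open diamond. The widest gaps between spots are those of Smpx on BALB 2 over BL6 2 (1.90 and 1.21) and on DBA 1 over BL6 1 (0.96 and 0.55) and of Tpt1 on DBA 1 over BL6 1 (2.20 and 2.59), and the fit misses single Tpt1 arrays by up to 0.48.

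Apobec2 (NM_009694) was highest in BALB and lowest in BL6, and both BALB animals stood above every other animal of their loop. Its log2 ratios were 0.12 for CBA 1 over BL10 1, −1.25 for BL10 1 over BALB 2, 1.58 for BALB 2 over BL6 2, 0.65 for CBA 2 over BL10 2, −0.56 for BL10 2 over DBA 1, 0.76 for DBA 1 over BL6 1, −0.73 for BL6 1 over DBA 2 and −0.79 for DBA 2 over BALB 1. BALB was thus on the brighter side of each of its arrays, and BL6 on the dimmer side of each of its own. DBA over BL6 gave nearly the same size with the dyes exchanged.

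On a log2 scale with the mean over all 5 strains at 0, Apobec2 stood at 0.93 in BALB (SE 0.13), 0.12 in DBA (SE 0.11), −0.03 in CBA (SE 0.19), −0.40 in BL10 (SE 0.11) and −0.62 in BL6 (SE 0.14). BALB exceeded DBA, the next strain, by 0.81 (SE 0.16), and CBA exceeded BL10 by 0.37 (SE 0.17). DBA and CBA (0.15, SE 0.27) and BL10 and BL6 (0.22, SE 0.22), which are neighbours in the order, differed by less than 2 SE. The distance of BALB over BL6 was 1.55 (SE 0.15), a ratio of 2.93.

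The loops gave Apobec2 the same distance of BALB over BL6, 1.56 in the smaller loop, from 1 array, and 1.55 in the larger, from 2 arrays that join the strains through DBA 2. BALB over BL10 was 1.27 in the smaller and 1.40 in the larger loop. CBA was less settled, since CBA 1 stood 0.11 above BL10 1 and CBA 2 stood 0.63 above BL10 2. All 6 pairs of the 4 strains that lie in both loops kept their sign from loop to loop.

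**Figure D2:**
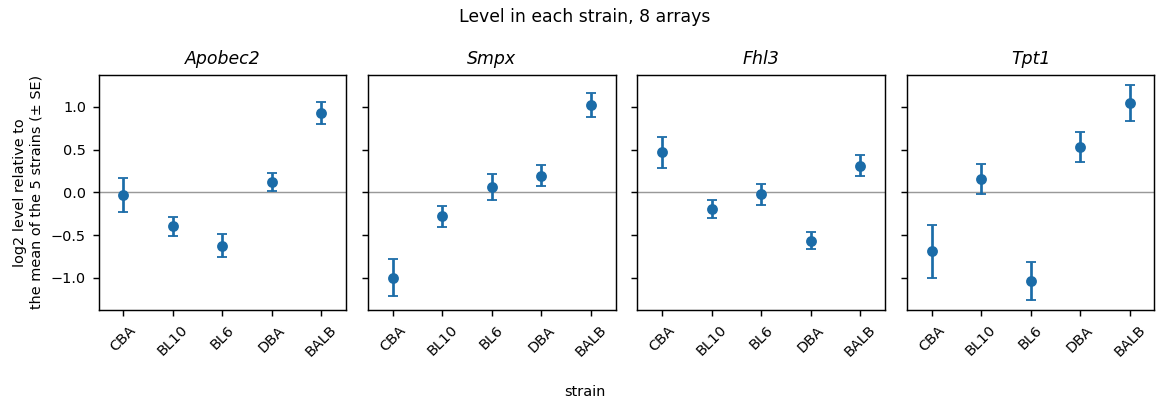
Level of each gene in each strain (horizontal axis), as log2 relative to the mean of the 5 strains (vertical axis), with bars of 1 SE from the fit of 8 arrays. BALB is the highest strain for Apobec2, Smpx and Tpt1, at 0.93, 1.02 and 1.04, and CBA for Fhl3, at 0.47.

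Smpx (AJ245772) was highest in BALB as well, while its lowest strain was CBA and BL6 lay near the mean. Its ratios were −0.43 for CBA 1 over BL10 1, −0.64 for BL10 1 over BALB 2, 1.56 for BALB 2 over BL6 2, 0.22 for CBA 2 over BL10 2, 0.09 for BL10 2 over DBA 1, 0.77 for DBA 1 over BL6 1, 0.47 for BL6 1 over DBA 2 and −0.21 for DBA 2 over BALB 1. Here DBA was brighter than BL6 on 1 array and dimmer on the other, with Cy5 the brighter dye on both.

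The dye effect of Smpx, the part of the ratio that favoured Cy5 whatever the animals, was 0.61 (SE 0.10, adjusted p = 0.00112 from limma). This was larger in size than 88.3% of all features. With it taken out, the levels were 1.02 in BALB (SE 0.14), 0.19 in DBA (SE 0.12), 0.06 in BL6 (SE 0.15), −0.28 in BL10 (SE 0.12) and −0.998 in CBA (SE 0.21). BALB stood above DBA by 0.83 (SE 0.17) and BL10 above CBA by 0.72 (SE 0.19), whereas DBA, BL6 and BL10 followed each other with steps of 0.13 (SE 0.16) and 0.34 (SE 0.24).

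BALB over CBA amounted to 2.02 (SE 0.32), a ratio of 4.06, and was 2.29 in the smaller and 1.73 in the larger loop. Without the dye estimate the larger loop would read −1.34 and the smaller 1.07, so the place of CBA rests on that estimate. BALB over BL6 was 0.94 in the smaller and 0.97 in the larger loop, against 1.56 and −0.26 before the dye estimate. The dye estimate was fitted to both loops at once with common strain levels, so the closeness of the loops is partly built in. The low place of CBA also depended on the identical arrays. BALB over CBA shrank to 0.88 when their values entered as BL6 2 over CBA 1, to 0.22 as BALB 1 over CBA 2 and to 0.25 with all 10 arrays, and BL6 was then the lowest strain.

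Fhl3 (NM_010213) had another order, with CBA and BALB high and DBA low. Its ratios were 0.99 for CBA 1 over BL10 1, −0.39 for BL10 1 over BALB 2, 0.42 for BALB 2 over BL6 2, 0.71 for CBA 2 over BL10 2, 0.62 for BL10 2 over DBA 1, −0.23 for DBA 1 over BL6 1, 0.73 for BL6 1 over DBA 2 and −0.75 for DBA 2 over BALB 1. DBA was on the dimmer side of all 4 of its arrays, and CBA on the brighter side of both of its own.

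The levels of Fhl3 were 0.47 in CBA (SE 0.18), 0.31 in BALB (SE 0.12), −0.02 in BL6 (SE 0.13), −0.19 in BL10 (SE 0.10) and −0.56 in DBA (SE 0.10). CBA and BALB (0.16, SE 0.27) as well as BL6 and BL10 (0.17, SE 0.20) did not differ beyond 2 SE. BALB exceeded BL6 by 0.34 (SE 0.14), and BL10 exceeded DBA by 0.37 (SE 0.17). CBA over DBA was 1.03 (SE 0.25), a ratio of 2.04, and BALB over DBA was 0.88 (SE 0.14). CBA stood above BL10 by 0.80 in the smaller and 0.52 in the larger loop. Of the 6 pairs present in both loops 5 kept their sign, and the exception was BL6 over BL10, at 0.35 in the smaller and −0.02 in the larger loop. DBA was the lowest strain in all 22 alternative settings, but BALB replaced CBA as the highest in 4, including the 3 that used the identical arrays. The 22 include the FDR of 5% and the test without shared spread, which leave the levels unchanged.

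Tpt1 (NM_009429) resembled Apobec2 in its extremes, with BALB high and BL6 low, and had the widest range of the 4 genes. Its ratios were −0.09 for CBA 1 over BL10 1, −0.18 for BL10 1 over BALB 2, 2.34 for BALB 2 over BL6 2, −0.65 for CBA 2 over BL10 2, −0.19 for BL10 2 over DBA 1, 2.40 for DBA 1 over BL6 1, −0.86 for BL6 1 over DBA 2 and −0.52 for DBA 2 over BALB 1. The 2 arrays with BL6 in Cy3 exceeded all others, while the array with BL6 in Cy5 was the lowest.

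The levels of Tpt1 were 1.04 in BALB (SE 0.21), 0.53 in DBA (SE 0.17), 0.15 in BL10 (SE 0.18), −0.69 in CBA (SE 0.31) and −1.03 in BL6 (SE 0.22). BALB exceeded DBA by 0.52 (SE 0.25) and BL10 exceeded CBA by 0.84 (SE 0.28). DBA and BL10 (0.37, SE 0.30) and CBA and BL6 (0.35, SE 0.49) lay within 2 SE of each other. BALB over BL6 was 2.08 (SE 0.25), a ratio of 4.22, with 1.87 in the smaller and 2.32 in the larger loop. Without the dye estimate these would read 2.34 and 1.38. BALB over BL10 would then be 0.18 in the smaller and −0.83 in the larger loop, and BALB over CBA 0.27 and −0.18. The place of BALB above BL10 and CBA in the larger loop thus rests on the dye estimate. BL10 over BL6, the pair of closely related strains, was 1.22 in the smaller and 1.27 in the larger loop.

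CBA again differed between the loops for Tpt1, at 0.56 below BL10 in the smaller and 1.12 below it in the larger loop. The SD of the fit was larger for Tpt1 than for 97.2% of all features, where Smpx exceeded 74.2%, Apobec2 58.5% and Fhl3 37.9%. BALB over BL6 was 1.59 without BALB 1 and 3.08 without BL6 1. Without BALB 1 the highest strain was DBA and the lowest CBA, and without BL6 1 the highest was CBA. CBA was also the lowest without BALB 2, BL10 1 or CBA 1.

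**Figure D3:**
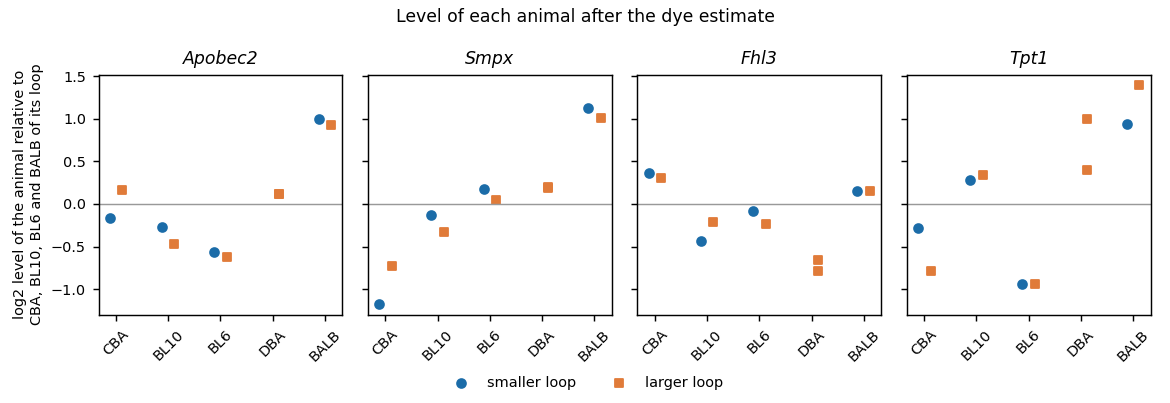
Level of each animal (points, by strain on the horizontal axis) as log2 relative to the mean of the CBA, BL10, BL6 and BALB animals of its own loop (vertical axis), after the dye estimate. Apobec2 reads 0.995 in BALB 2 of the smaller loop and 0.93 in BALB 1 of the larger, whereas the DBA animals, both in the larger loop, differ by 0.60 for Tpt1.

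DBA has both animals in the larger loop, each on an array with BL6 1 and in the opposite dye. DBA 1 over BL6 1 and DBA 2 over BL6 1 were 0.74 and 0.74 for Apobec2, 0.15 and 0.14 for Smpx, −0.41 and −0.54 for Fhl3, and 1.93 and 1.33 for Tpt1, after the dye estimate. The DBA animals thus lay within 0.01 of each other for Apobec2 and Smpx and were 0.13 and 0.60 apart for Fhl3 and Tpt1. The dye estimate draws on these same arrays, so the closeness of the DBA animals is partly built into the fit. A difference between the animals and an error of the dye estimate cannot be told apart here.

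The rule that chose the genes did not name the dye effect, which was tested. It was fitted together with the strain levels, and Smpx BALB minus CBA was 2.02 with a dye term and 0.73 without it. The p-values of the dye effect may therefore not be independent of the choice by range. The dye effect favoured Cy5 in Smpx, in Tpt1 at 0.47 (SE 0.15, adjusted p = 0.0246 from limma) and in Fhl3 at 0.19 (SE 0.09, adjusted p = 0.0921 from limma). That of Apobec2 was 0.02 (SE 0.09, adjusted p = 0.88 from limma). Of all 7697 features, 32.2% passed an FDR of 10% in favour of Cy5 and 30.1% in favour of Cy3, beside the 3 of 4 genes called here. The call of Fhl3 was lost in 11 of the alternative settings and kept in 10, and the losses included either spot alone (adjusted p = 0.260 and 0.116) and arrays taken as independent (adjusted p = 0.169). The call of Smpx was lost with all 10 arrays (adjusted p = 0.548) and with the shared values as BALB 1 over CBA 2 (adjusted p = 0.639). The call of Tpt1 was lost in both of these settings (adjusted p = 0.179 and 0.585), after quantile normalization (adjusted p = 0.135) and in the test without shared spread (adjusted p = 0.201). Without BL6 1 the effect of Tpt1 turned to −0.73 (adjusted p = 0.106) and that of Smpx no longer passed (adjusted p = 0.127).

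The duplicate spots mostly gave close readings. Across the 8 arrays the first and the second spot correlated at r = 0.998 for Apobec2, 0.997 for Tpt1, 0.991 for Fhl3 and 0.973 for Smpx, as a description, since arrays share animals. The median difference between the spots was 0.04 for Apobec2, 0.06 for Fhl3 and Tpt1 and 0.15 for Smpx on the log2 scale, against 0.16 over all features. The largest single difference, 0.69, was that of Smpx on BALB 2 over BL6 2. These spots were printed on 1 slide and hybridised with 1 pair of samples, so they measure the array and not the animals.

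**Figure D4:**
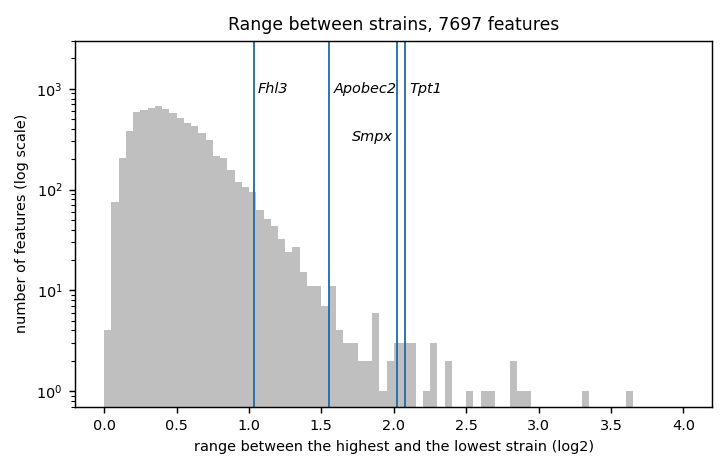
Number of features (vertical axis, log scale) by the log2 range between their highest and lowest strain (horizontal axis), with lines for the 4 genes. Fhl3, at 1.03, lies among many features, and Apobec2, Smpx and Tpt1, at 1.55, 2.02 and 2.08, lie in the thin upper end.

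The median range between strains was 0.45 over all features. Tpt1, Smpx and Apobec2 had the 20th, 23rd and 56th widest, and Fhl3 the 377th, so that 95.1% of features had a narrower one than Fhl3. These places describe the choice of the genes.

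On the identical arrays, whose values were left out, the ratio was −0.56 for Apobec2, −0.40 for Smpx, 0.45 for Fhl3 and 0.18 for Tpt1. The strain levels and dye effects from the other 8 arrays would give −0.57, 1.67, −0.30 and 0.13, in the same order of genes, for BL6 over CBA. For BALB over CBA they would give 0.98, 2.63, 0.03 and 2.21. The readings of Apobec2 and Tpt1 lay near the values for BL6 over CBA, whereas those of Smpx and Fhl3 lay near neither.

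Over the 8 arrays, the ratios of Apobec2 correlated at r = 0.78 with those of Smpx and at 0.73 with those of Tpt1, and those of Smpx at 0.72 with those of Tpt1. Fhl3 correlated at 0.31 with Apobec2, 0.17 with Smpx and −0.17 with Tpt1. Spearman's rho was 0.76 for Apobec2 and Smpx, 0.52 for Apobec2 and Tpt1 and 0.19 for Smpx and Tpt1. The arrays share animals and a dye effect, and the genes were chosen for ranges in these arrays, so these are descriptions.

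The genes whose ratios over the 8 arrays were most like those of a member, among genes whose range was at least that of the member divided by 2, were as follows. For Apobec2 they were Skil, a repressor of TGF-β signalling, at r = 0.943, the microtubule-associated Map4 at 0.928 and Shkbp1 at 0.922. For Smpx they were Rab9, a GTPase of late endosomes, at 0.971, the zinc finger gene Zfp617 at 0.955 and Vdac3, a channel of the outer mitochondrial membrane, at 0.951. For Fhl3 they were the Wnt ligand Wnt11 at 0.883, the lipid kinase Agk at 0.877 and Rrad, a Ras-related GTPase, at 0.860. For Tpt1 they were Rpl7, a protein of the large ribosomal subunit, at 0.969, the RNA-binding Hnrnpa2b1 at 0.967 and Lsp1, an actin-binding protein of leukocytes, at 0.965. All 12 had a narrower range than the member they resembled, and the spots of some disagreed, with Rab9 BALB minus CBA at 0.60 and 1.48, Shkbp1 CBA minus BL6 at 1.46 and 0.62 and Rrad CBA minus DBA at 0.13 and 1.27 from the first and the second spot. Rpl7, for example, stood at 0.61 in BALB and −0.27 in BL6, with CBA lowest at −0.51.

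Relatives and partners of the 4 genes were read from 6 lists with 164 features. By limma's moderated F between strains, 0 of the 164 passed an FDR of 10%, against 0.130% of all features, and 26 had an unadjusted p under 0.05, where 1079 of all 7697 features did. For BALB against BL6, the strains at the ends of Apobec2 and Tpt1, 10 of the 164 were called higher and 0 lower in BALB, where 3.75% of all features were called higher and 0.806% lower. These calls were absent without a dye term, with all 10 arrays as labelled and in the test without shared spread, each of which called 0 of all features in this comparison. All 10 were also lost with the first spot alone and at an FDR of 5%, the lowest adjusted p among them being 0.0564. Of 22 alternative settings, the calls were kept in between 6 (Eef2) and 16 (Rps3a1), with 8 for Numb, 9 for Mef2c, 10 for Rpl8 and 11 for Pdlim5. Over all features the count for BALB against BL6 was 351, and it was 12 without BALB 1 and 3642 without BALB 2.

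Among RNA-editing enzymes and other deaminases, 0 of 8 features passed in either direction. The widest were Apobec1, which edits the apolipoprotein B mRNA, at 0.34 in CBA and −0.40 in BL6, and Adar, an adenosine deaminase of double-stranded RNA, at 0.30 in BL10 and −0.34 in BL6. Neither had its highest level in BALB, and Apobec1 CBA minus BL6 was 1.22 with the first spot alone and 0.28 with the second.

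Of 41 features for LIM domain proteins, 1 was called higher in BALB than in BL6 and 0 lower, and the median difference was −0.10, against −0.06 over all features. The called one was Pdlim5, a PDZ and LIM protein of the Z-disc, by 1.70 (SE 0.43, adjusted p = 0.0898 from limma). The homeodomain factor Lmx1b had the next widest range, at 0.81 in CBA and −0.66 in BL6, with Lmx1b CBA minus BL6 at 0.89 from the first and 2.07 from the second spot. The closest relatives of Fhl3, named after their values were seen, had another order than Fhl3. Fhl1 stood at 0.28 in BL6 and −0.35 in CBA, and Fhl2 at 0.35 in BL6 and −0.18 in CBA, neither past the threshold between strains (adjusted p = 0.553 and 0.356 from limma). Of 15 transcription factors and coregulators that bind FHL proteins, 0 were called. The widest were Foxo1, at 0.51 in BL6 and −0.66 in CBA, and Klf3, which FHL3 binds, at 0.26 in BALB and −0.47 in CBA. Their spots differed, with Foxo1 BL6 minus CBA at 1.67 and 0.67 and Klf3 BALB minus CBA at 0.94 and 0.48 from the first and the second spot.

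Of 29 features for the costamere, the cytoskeleton and signalling linked to Smpx, 3 were called higher in BALB than in BL6 and 0 lower, with a median difference of 0.12. Actn2, the α-actinin of the Z-disc, was higher by 1.27 (SE 0.22, adjusted p = 0.0564 from limma), Flnc, the filamin of muscle, by 1.05 (SE 0.19, adjusted p = 0.0564) and the transcription factor Mef2c by 0.90 (SE 0.23, adjusted p = 0.0911). Actn2 and Flnc were highest in BL10, at 0.76 and 0.51, and not in BALB. Vcl, the costamere protein vinculin, named after its values were seen, ranged over 0.07 only.

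Of 60 features for elongation factors, ribosomal proteins and other TOP transcripts, the class of Tpt1, 5 were called higher in BALB than in BL6 and 0 lower, with a median difference of 0.24. They were Rps12 (0.90, SE 0.17), Rpl7 (0.87, SE 0.15) and Rps3a1 (0.87, SE 0.15), each at an adjusted p of 0.0564 from limma, Rpl8 (0.61, SE 0.14, adjusted p = 0.0716) and the elongation factor Eef2 (0.58, SE 0.14, adjusted p = 0.0811). The called features of Rpl8, Rps3a1 and Eef2 were highest in CBA, at 0.81, 0.55 and 0.33, where Tpt1 was low. Eef2 has 2 further features, which were not called (adjusted p = 0.200 and 0.166), and 1 of them was highest in BALB, at 0.34, with 0.20 in CBA. The duplicate spots of Rpl8 and Rps3a1 disagreed, since Rpl8 BALB minus BL6 was 0.10 with the first spot alone (adjusted p = 0.823) and 1.13 with the second, and Rps3a1 BALB minus BL6 was 0.48 (adjusted p = 0.270) and 1.27. Of 11 features for partners of Tpt1 in growth and survival, 1 was called higher in BALB, Numb, an inhibitor of Notch, by 0.77 (SE 0.19, adjusted p = 0.0838), and 0 lower. The growth kinase Mtor had the widest range of the 11, at 0.46 in CBA and −0.42 in BL6, but its spots disagreed in direction, with Mtor CBA minus BL6 at −0.31 from the first and 2.07 from the second.

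Markers of fibre types and of other cells are given beside these levels, and their part in them was not tested. The median level of 9 fast-fibre features was 0.40 in BALB, 0.23 in DBA, 0.01 in BL6, −0.11 in BL10 and −0.25 in CBA. That was the order of strains found for Smpx in the fit of 8 arrays. In that order the steps from DBA to BL6 and from BL6 to BL10 were under 2 SE. Smpx was lowest in BL6, not CBA, without a dye term and with the identical arrays. Tnnt3 and Eno3 were called higher in BALB than in BL6, and 1, Pvalb, was called between strains. Of 22 alternative settings, 15 lost the call of Eno3 and 8 that of Tnnt3. A second Eno3 feature was not called (adjusted p = 0.148 from limma). Pvalb, Tnnc2, Casq1 and Actn3 were highest in DBA and not in BALB. Tnni2 and Actn3 alone had BALB minus BL6 differences below 0, at −0.22 and −0.13, neither called. The 7 slow-fibre features lay at 0.16 in BL6, 0.15 in DBA, 0.09 in BALB, −0.03 in BL10 and −0.23 in CBA, with 0 called. Of 7 connective-tissue features 2 were called higher in BALB, Col3a1 and Col1a1, and of 9 leukocyte features 1, C1qa. The call of C1qa was lost in 17 of 22 alternative settings, that of Col1a1 in 13 and that of Col3a1 in 9. Other features of these lists had BALB minus BL6 differences below 0, such as Lyz2 at −0.43, C1qb at −0.27 and a feature of Pdgfra at −0.38, none of them called. The 9 fat-cell features had the widest median range of the marker lists, 1.60 against 0.45 over all features, with 0 called between strains. Their median level was 0.28 in BL10, 0.19 in CBA, −0.03 in BALB, −0.51 in DBA and −0.52 in BL6. The widest were Fasn, the fatty acid synthase, at 2.06 in CBA and −1.28 in BALB, and Scd1, a fatty acid desaturase, at 1.77 in CBA and −1.07 in DBA. Car3, Cidec and Fabp4 were also above 0 in CBA, at 1.46, 1.13 and 0.19. Lep, Lpl, Adipoq and Pparg were below 0 there, at −0.20, −0.18, −0.05 and −0.04. Fasn CBA minus BALB was 3.33, and 1.87 without a dye term. Of the features for endothelium (7), nerve (6) and blood (3), 0 were called.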

How the data were processed

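Before deposit, the authors read the spots in GenePix Pro 3.0, corrected each for its surroundings and normalized the arrays by variance stabilization (VSN). Each deposited value is thus a natural log ratio, Cy5 over Cy3, of a single spot. The log base was taken from VSN and the direction from the dyes in the sample titles. The values carry neither brightness nor spot flags, so no filter on dim spots was possible, and the number of arrays limits the precision.

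Ratios were converted to log2, duplicate spots, 648 places apart, were averaged, and the median of every array was set to 0. The 80 features of 1 control oligonucleotide were merged, which left 7697 features. Of 7776 features, 6831 carried 1 symbol, 7 several and 938 none. Symbols were updated through a RefSeq table of GRCm38.p6, which held 6801.

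Strain terms and a gene-wise dye term were fitted in limma 3.58.1 (R 4.3.3), with Benjamini-Hochberg adjustment over all features and an FDR of 10%. The animal was the replicate, through a ratio of animal to array variance of 0.447 for all features, estimated by restricted maximum likelihood. The fit had 3 residual degrees of freedom. Levels of animals were solved within each loop with MASS 7.3.60.0.1 after the dye estimate. That estimate came from both loops together, so the levels in the loops are not independent. The steps were also run on data simulated from the fitted model, with shifts in BALB alone. Such data cannot test the model itself, the place of CBA or the labels of the identical arrays. Animals are separate mice, but with 2 per strain the p-values rest on few animals. They also rest on the common ratio and on a spread that limma shares across features (6.16 prior degrees of freedom). The p-values thus do not measure the spread of each gene between mice alone. With 1 animal left out, the ratio ran from 6.34e-07 to 4.19.

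Members, lists, markers and tests were chosen with earlier results of these data known. Named genes were the 4 genes, for each the 3 genes with the most similar ratios, and from each list the called features and the 2 with the widest range. The list of TOP transcripts took every ribosomal protein symbol, and Rps6kb2, an S6 kinase that the same letters match, was left out. Alternatives were other scalings, either spot alone, no dye term, independent arrays, the identical arrays under either label or both, no shared spread, an FDR of 5%, the animal number as a block and leaving out each animal. Figures were drawn with matplotlib 3.10.9 in Python 3.11.15.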

Additional observations from a re-analysis of the deposited data

How the results depend on the processing

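The count of features called between strains (10) was 199 with equal array spreads, 133 after quantile normalization, 3 with the first spot alone or without a dye term, 6 with all 10 arrays, 34 with the shared values as BL6 2 over CBA 1, 63 with the animal number as a replicate block, 0 in the ordinary test (727 at an unadjusted p under 0.05) and 5 at an FDR of 5%. For BALB against BL6 (351) these settings gave 169, 109, 3 (first spot), 0 (no dye term, 485 at an unadjusted p under 0.05), 0 (10 arrays, 1104), 367 (BL6 2 over CBA 1), 600 (replicate block), 0 (ordinary test, 1149) and 11, and it was 187 with the second spot alone and 176 with the shared values as BALB 1 over CBA 2.

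Apobec2 BALB minus BL6 (1.55) was 1.24 with equal spreads, 1.30 after quantile normalization and 1.26 with all 10 arrays. Tpt1 BALB minus BL6 (2.08) was 1.61 with equal spreads and 1.69 with all 10 arrays. Smpx BALB minus CBA (2.02) was 1.79, 1.75, 2.26 and 1.73 with equal spreads, quantile normalization and the first and the second spot, 0.73 without a dye term, 0.25 with all 10 arrays, and 0.88 and 0.22 with the shared values as BL6 2 over CBA 1 and as BALB 1 over CBA 2. Fhl3 CBA minus DBA (1.03) was 1.37 after quantile normalization, 1.39 without a dye term, 0.67 with all 10 arrays, and 0.65 and 0.83 with the shared values under either label. The direction of these 4 differences held in all 22 settings. The Apobec2 dye effect turned to −0.25 (adjusted p = 0.0353 from limma) with the shared values as BALB 1 over CBA 2.

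Leaving out 1 animal gave 10 to 4169 features between strains, 12 to 3642 for BALB against BL6 and 3124 to 5793 for the dye effect (4793 in the fit of 8 arrays). Smpx BALB minus CBA ranged from 1.67 to 2.35, Tpt1 BALB minus BL6 from 1.59 to 3.08 and the Tpt1 dye effect from −0.73 to 0.77. With DBA 2 left out, the dye term could not be estimated and no value was obtained. The number of the animal is a name within its strain and marks no shared litter or batch in the labels, so the block does not stand for paired samples. The cause of these changes was not tested. Of 440 strain levels of the 4 genes under other settings, 383 moved by less than the SD of a single ratio of their gene.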
